A study of Mus musculus with 27 samples.

Results

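The genes described here are 10 genes of the circadian clock, measured as mRNA in small blocks of mouse cortex taken 24 h after an injection of vehicle or of 1 of a pair of drug candidates. They are Arntl (the gene of BMAL1), Per1, Per2, Per3, Cry1, Cry2, Nr1d1, Nr1d2, Dbp and Ciart. The deposited table spells them in lower case, as arntl, per1, per2, per3, cry1, cry2, nr1d1, nr1d2, dbp and ciart, and each was found in it, 10 of 26264 genes in all. Levels are in FPKM, which are fragments scaled by transcript length and by the total of the library. Tests ran on the 12976 genes whose mean level reached 1 FPKM, and all 10 were among them. The list was chosen by gene symbol, as known genes of the clock, but with earlier results of these same libraries known, and which of their values counted is not recorded. The differences between treatments below are therefore a description of these libraries, and the p-values beside them, which come from fits over all genes tested, are no independent support.

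All mice were female 5xFAD animals on a C57BL6 background, 16 weeks old. 5xFAD mice carry mutant human transgenes driven in neurons by the Thy1 promoter, and vehicle mice carry them as well, so no group here lacks the transgenes. Each mouse received 500 nL into the lateral parietal associative cortex of 1 hemisphere, either vehicle (3% DMSO with 20% sulfobutylether beta-cyclodextrin in saline) or R33 or R55 at 10 mM, which are thiophene thioureas made to stabilise retromer, a complex that sorts endosomal cargo. About 1 mm3 of cortex was then taken from the injected and from the contralateral hemisphere. The libraries used were 27 from 14 mice, with 4 vehicle, 5 R33 and 5 R55 mice, and mouse AE (R33) was represented by its injected hemisphere only. Mice are named by the letters of their labels, of which 9 have 1 letter (J, L and M vehicle, K, N and O R33, P, Q and R R55) and 5 have 2 letters (AH vehicle, AD and AE R33, AA and AB R55). The meaning of 1 and 2 letters, and the hour of day at which tissue was taken, are not given in the sources used here.

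The circadian clock is a feedback loop of transcription that runs in nearly every cell. The proteins of Arntl and Clock bind E-box sequences and switch on the Per and Cry genes, whose proteins then inhibit that pair. Nr1d1 and Nr1d2 encode the REV-ERB nuclear receptors, which are switched on by the same pair and repress Arntl through ROR response elements. Dbp encodes a PAR bZIP activator that binds D-boxes, and Ciart encodes CHRONO, a further repressor of the loop. In cortex as in other tissues the mRNA of Arntl and that of Dbp rise and fall at opposite parts of the day.

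Sequence is shown for members whose windows held an E-box, a D-box or a ROR element, so that the links of the loop can be seen in the genes themselves. RefSeq windows of 250 bases before and 50 after a start site (table build GRCm38.p6) were matched for 9 of the 10 members, all but Per2, and were placed on GRCm39 by exact match, except that of Nr1d2, which had no exact match. Letters were searched on both strands, and capitals mark the matches. The E-box CACGTG was in 7.15% of 32851 such windows of all genes, its variant CACGTT in 4.68%, the D-box TTANGTAA in 2.32%, the ROR element ANTNGGTCA in 2.24% and the cAMP element TGACGTCA in 1.79%. The Ciart window held 3 E-boxes, which start 116, 58 and 44 bases before the start site. The Cry1 window held 1 E-box and 1 variant, read on the other strand as AACGTG, the Per1 window 1 E-box, and the Per3 window 2 D-boxes. The ROR element of Arntl began at base 29 after the start site of its other RefSeq transcript, and 29 bases around it are shown.
Ciart, chr3:95789541-95789790, minus strand: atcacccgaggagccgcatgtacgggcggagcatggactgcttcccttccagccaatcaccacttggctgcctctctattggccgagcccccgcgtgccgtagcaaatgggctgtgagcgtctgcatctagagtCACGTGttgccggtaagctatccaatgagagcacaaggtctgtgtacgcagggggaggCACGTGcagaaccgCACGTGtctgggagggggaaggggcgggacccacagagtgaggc
Cry1, chr10:85020919-85021168, minus strand: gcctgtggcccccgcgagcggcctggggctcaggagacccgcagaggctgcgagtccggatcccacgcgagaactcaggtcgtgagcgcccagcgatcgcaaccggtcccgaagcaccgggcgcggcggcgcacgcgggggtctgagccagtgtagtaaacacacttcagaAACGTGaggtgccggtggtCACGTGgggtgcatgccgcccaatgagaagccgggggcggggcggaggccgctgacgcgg
Per1, chr11:68989525-68989774, plus strand: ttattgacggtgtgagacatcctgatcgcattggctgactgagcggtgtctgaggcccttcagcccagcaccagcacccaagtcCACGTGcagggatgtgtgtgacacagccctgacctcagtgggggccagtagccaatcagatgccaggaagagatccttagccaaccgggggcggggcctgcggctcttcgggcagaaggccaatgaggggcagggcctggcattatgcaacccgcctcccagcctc
Per3, chr4:151129123-151129372, minus strand: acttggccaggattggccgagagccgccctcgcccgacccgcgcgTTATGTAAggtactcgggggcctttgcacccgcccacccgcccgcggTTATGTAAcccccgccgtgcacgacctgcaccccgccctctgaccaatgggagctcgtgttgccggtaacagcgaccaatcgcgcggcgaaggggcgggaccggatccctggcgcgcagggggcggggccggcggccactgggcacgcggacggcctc
Arntl, chr7:112806736-112806764, plus strand: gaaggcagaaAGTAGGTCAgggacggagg
The windows of Cry2 and Nr1d1 held 1 variant E-box each and are not shown, and those of Dbp and Nr1d2, the other Per1 window and the other Arntl window held none of the searched letters. A match says only that the letters are there, and no binding was measured.

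In GENCODE release 39 on GRCm39, Arntl lies at chr7:112806152-112914735 under the name Bmal1, Dbp at chr7:45354512-45359627 and Nr1d1 at chr11:98658752-98666188. Of protein-coding genes on the opposite strand, Thra shares 1694 exon bases with Nr1d1, Sphk2 shares 539 with Dbp and Uts2 shares 154 with Per3. Long noncoding RNA genes on the opposite strand share up to 449 exon bases with Per3, 334 with Per1, 296 with Cry2, 250 with Ciart and 162 with Arntl. The strand setting of the counting is not given in the sources used here, so reads from these overlapping genes cannot be told apart.

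Library totals ran from 15932196 to 38077026 fragments assigned to genes. The member with the fewest fragments in any library, Ciart, still had 124. The tissue was checked against marker lists. All 6 cortical excitatory neuron markers were present in every group, with Slc17a7 at 312 to 708 FPKM. Of 6 markers of the suprachiasmatic nucleus, the site of the central pacemaker, Six6, Lhx1 and Nms did not reach the mean of 1 FPKM, and Six6 had a median of 0 FPKM, whereas Vip (16.4 to 42.4 FPKM), Rgs16 (2.66 to 14.2) and Avp (up to 5.05), which are not limited to that nucleus, did. Striatal markers were uneven, and their summed level ran from 35.7 to 281 FPKM over libraries.

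Nr1d1 was the most abundant of the 10 members and Per2 the least abundant, with mouse means of 56.2 ± 9.50 FPKM and 4.90 ± 0.805 FPKM (mean ± SD, n = 14). Dbp followed Nr1d1 at 36.1 ± 11.8 FPKM, then Cry2 at 34.3 ± 2.95, Nr1d2 at 23.8 ± 3.30 and Per1 at 20.5 ± 4.85. The lower levels were those of Arntl at 11.7 ± 2.50 FPKM, Ciart at 10.6 ± 3.45, Cry1 at 6.52 ± 1.11 and Per3 at 5.63 ± 0.986. Since FPKM is scaled by transcript length, these levels can be ordered between genes. Of neighbours in that order, Arntl was above Ciart in 8 of 14 mice, Dbp above Cry2 in 10 and Cry1 above Per3 in 11, and the other pairs kept their order in 12 to 14 mice.

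**Figure D1:**
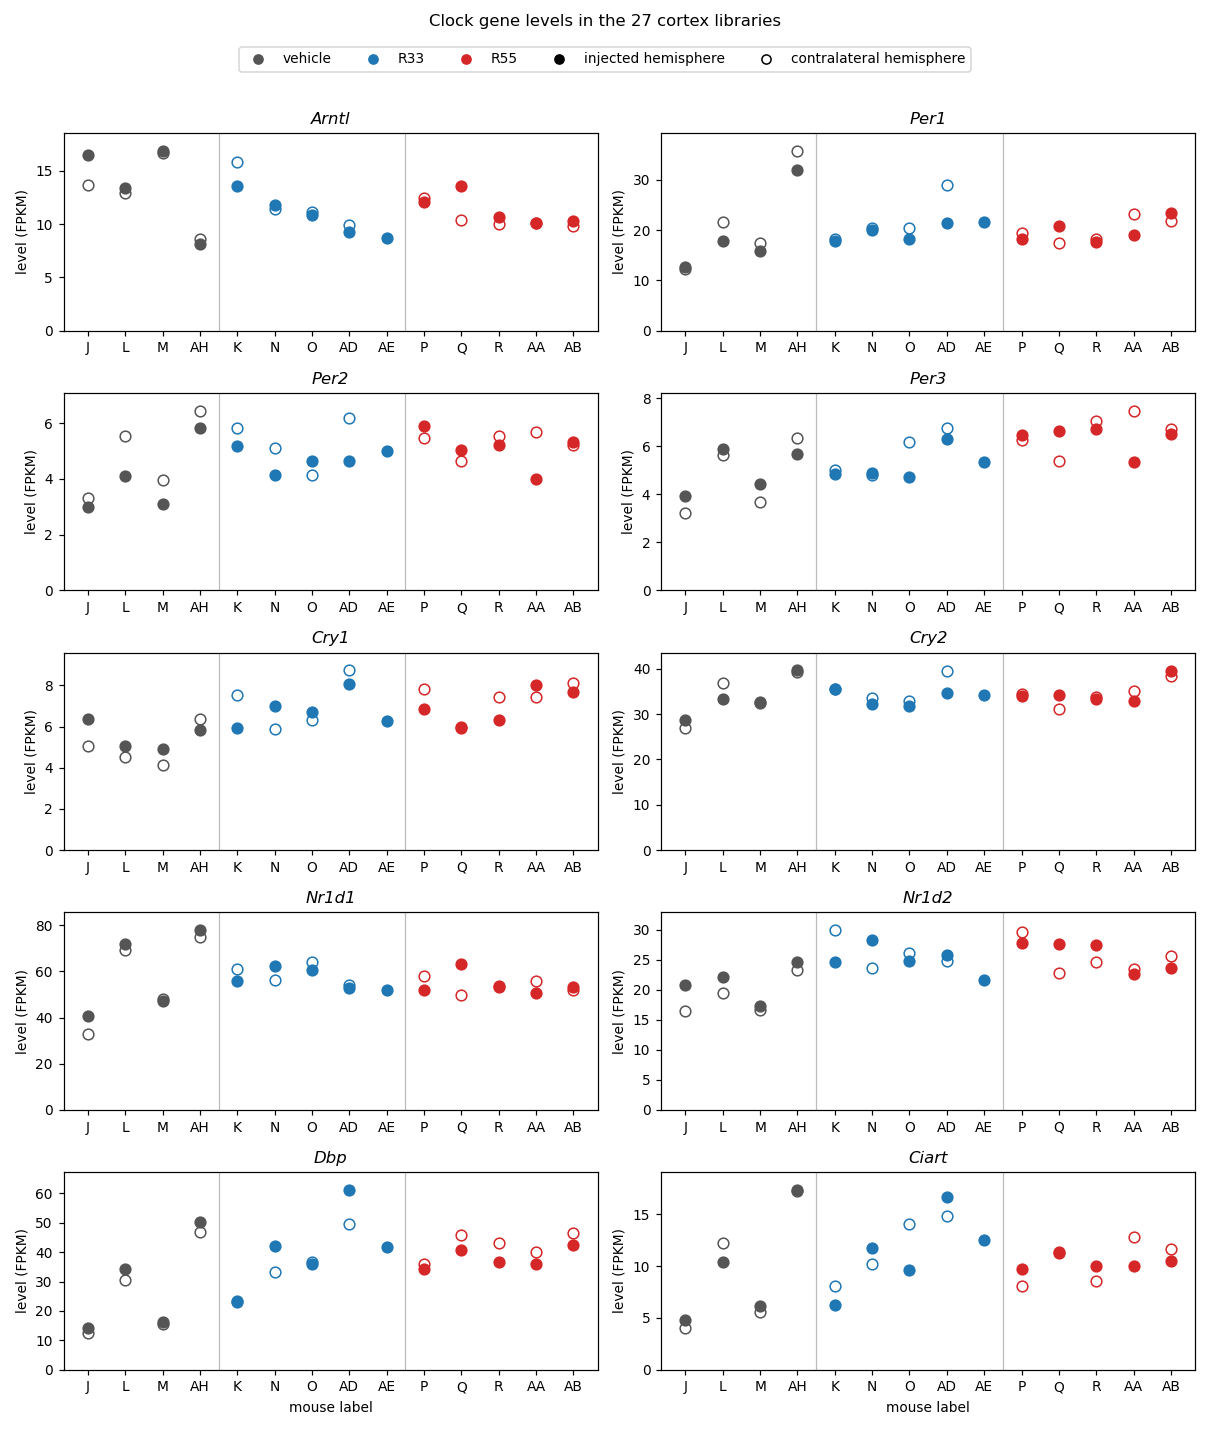
Level of each clock gene in FPKM (y axis, from 0) in every library, by mouse (x axis) and treatment (colour), with filled circles for the injected and open circles for the contralateral hemisphere. Vehicle mice J and M sit low for Dbp (12.3 to 16.3 FPKM) and high for Arntl (13.7 to 16.9 FPKM), vehicle mouse AH sits at the other end, and the R55 mice lie close together.

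Dbp, the output activator, varied most between mice, with a 4.17-fold range of mouse means, and Arntl varied in the opposite direction over a 2.01-fold range. Dbp was at 14.3, 34.4, 16.3 and 50.3 FPKM in the injected hemispheres of vehicle mice J, L, M and AH, and at 12.3, 30.5, 15.6 and 46.9 FPKM in their contralateral hemispheres. In R33 mice K, N, O, AD and AE, injected Dbp was at 23.3, 42.0, 36.0, 61.1 and 41.9 FPKM, and contralateral Dbp in the first 4 was at 23.0, 33.3, 36.6 and 49.7 FPKM. In R55 mice P, Q, R, AA and AB it was at 34.2, 40.6, 36.7, 36.1 and 42.3 FPKM on the injected side and 36.2, 45.7, 43.3, 40.2 and 46.5 FPKM on the other. Vehicle mice J and M were thus below every drug mouse, vehicle mouse AH was above all but R33 mouse AD, and the groups overlapped.

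Arntl, the activator of the loop, was at 16.5, 13.4, 16.9 and 8.12 FPKM in the injected hemispheres of vehicle mice J, L, M and AH and at 13.7, 12.95, 16.7 and 8.62 FPKM in the contralateral ones. In R33 mice K, N, O, AD and AE it was at 13.6, 11.8, 10.8, 9.25 and 8.65 FPKM on the injected side, and in the first 4 at 15.8, 11.4, 11.1 and 9.95 FPKM on the other. In R55 mice P, Q, R, AA and AB it was at 12.1, 13.6, 10.7, 10.1 and 10.3 FPKM on the injected side and at 12.4, 10.4, 9.98, 10.1 and 9.85 FPKM on the other. Arntl was highest where Dbp was lowest, in vehicle mice J and M, and lowest in vehicle mouse AH and R33 mouse AE.

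The repressor genes followed Dbp to different degrees. Ciart had mouse means of 4.44, 11.3, 5.85 and 17.3 FPKM in vehicle mice J, L, M and AH, against 7.14 to 15.7 FPKM in R33 mice and 8.90 to 11.4 FPKM in R55 mice. Per1, which also answers within minutes to neuronal activity, was at 12.5, 19.7, 16.6 and 33.9 FPKM in the same vehicle mice, 18.1 to 25.2 FPKM in R33 mice and 17.9 to 22.6 FPKM in R55 mice. Vehicle mice J and M were again the lowest and vehicle mouse AH the highest for both genes. Per2 ranged from 3.14 (J) to 6.13 FPKM (AH) within the vehicle mice alone, which enclosed every drug mouse. Nr1d1 did so too, from 36.8 (J) to 76.3 FPKM (AH), while R55 mice stayed between 52.7 and 56.5 FPKM.

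Cry1, Nr1d2 and Per3 showed another arrangement, in which the highest vehicle mouse was below most R55 mice. Cry1, a repressor of the loop, had mouse means of 5.70, 4.80, 4.53 and 6.11 FPKM in vehicle mice J, L, M and AH, of 6.74, 6.45, 6.50, 8.40 and 6.26 FPKM in R33 mice K, N, O, AD and AE, and of 7.36, 5.94, 6.88, 7.74 and 7.90 FPKM in R55 mice P, Q, R, AA and AB. Nr1d2, the second REV-ERB gene, was at 18.7, 20.7, 17.0 and 23.9 FPKM in the vehicle mice, at 27.2, 25.97, 25.5, 25.3 and 21.6 FPKM in the R33 mice and at 28.7, 25.3, 26.04, 23.0 and 24.7 FPKM in the R55 mice. Per3, a Per gene that is less needed for rhythm than the other two, was at 3.59, 5.78, 4.06 and 6.01 FPKM in the vehicle mice, at 4.95, 4.85, 5.45, 6.54 and 5.35 FPKM in the R33 mice and at 6.36, 6.01, 6.88, 6.41 and 6.62 FPKM in the R55 mice. For Cry1, every R33 mouse and 4 of 5 R55 mice were above all vehicle mice, and for Nr1d2, 4 of 5 mice were above them with either drug. For Per3, 4 of 5 R55 mice but 1 of 5 R33 mice were above all vehicle mice. Mouse means that did not overlap between groups were found for 0 members with R55 against vehicle (2.44% of all genes tested), for 1 member, Cry1, with R33 against vehicle (0.709%), and for 0 members with R55 against R33 (0.0848%).

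Cry2 was the steadiest member, with mouse means between 27.8 FPKM in vehicle mouse J and 39.5 FPKM in vehicle mouse AH.

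The vehicle mice differed among themselves more than the drug mice did, for every member. On the log2(FPKM + 1) scale, the SD between vehicle mice was 0.84 for Dbp, 0.80 for Ciart, 0.58 for Per1, 0.49 for Nr1d1 and 0.41 for Arntl, beside a median of 0.14 over all genes. Dbp had the 41st and Ciart the 47th largest SD of 12976 genes in the vehicle group. Among R55 mice, the SD was 0.13 for Dbp, 0.16 for Ciart and 0.04 for Nr1d1, beside a median of 0.11 over all genes. All 10 members had a larger SD among vehicle than among R55 mice, as did 59.7% of all genes tested, and all 10 a larger SD among vehicle than among R33 mice, as did 41.2% of all genes. These spreads were not tested, and J, M and AH are 3 of only 4 vehicle mice.

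**Figure D2:**
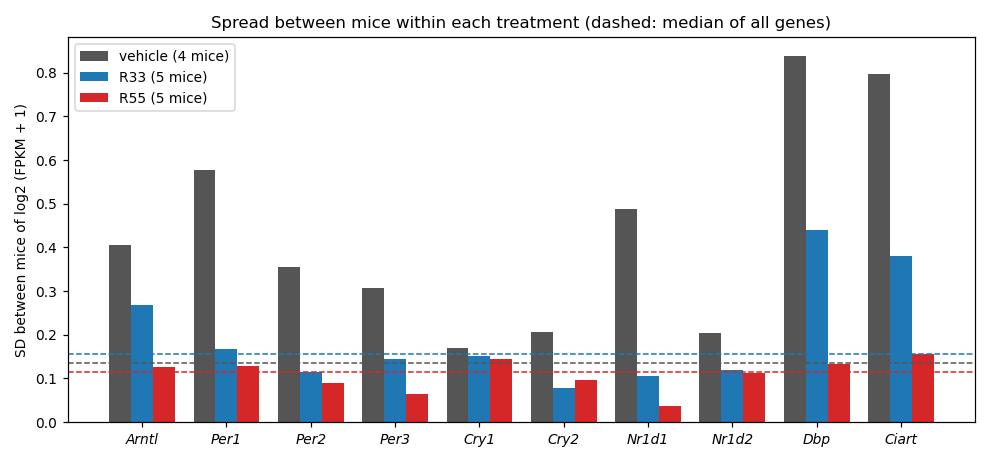
SD between mice of log2(FPKM + 1), hemispheres averaged, for each clock gene (x axis) in 4 vehicle, 5 R33 and 5 R55 mice, as bars from 0, with a dashed line at the median of all genes tested for each group. The vehicle bar is the tallest for each of the 10 genes, up to 0.84 for Dbp.

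The clock genes differed more between mice than between the hemispheres of a mouse, with SD ratios from 1.39 for Per2 to 4.71 for Dbp on the log2 scale. Over the 13 mice with both hemispheres, the level of Dbp in the injected hemisphere followed that in the contralateral one with Pearson r = 0.955 and Spearman rho = 0.907 (permutation p = 2e-05 and 3e-05, two-sided), and this r was the highest of the 12976 genes tested. Ciart followed with r = 0.880 (rho = 0.709, permutation p = 7e-05 and 0.00878), Per1 with r = 0.875 (rho = 0.742, permutation p = 0.00069 and 0.00499) and Arntl with r = 0.865 (rho = 0.912, permutation p = 0.00012 and 4e-05). Their places by r among all genes were 36, 46 and 64. The other members had r from 0.699 for Per2 to 0.842 for Nr1d1, and the median over all genes was 0.343. An r of at least 0.8 was found for 6 of 10 members and for 1.80% of all genes. The hemispheres of a mouse share its treatment, its label series and its time of death, and the part of each in this agreement was not tested.

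The r values were lower when mice far from the median were left out, vehicle mice J, M or AH among them. Without the 2 mice farthest from the median, r was 0.840 for Dbp (J and M left out), 0.757 for Ciart (J and AH), 0.752 for Arntl (AH and M) and 0.514 for Per1 (AH and J), but 0.195 for Per2, 0.345 for Nr1d2 and 0.416 for Per3 (J and M each time). The Pearson r of Per2, Nr1d2 and Per3 was thus much lower without those vehicle mice. Leaving out the most extreme mice narrows the range and can by itself lower r, and the fall for other genes was not computed. Spearman's rho over all 13 mice had permutation p = 0.123 for Per2, 0.0856 for Nr1d2 and 0.0245 for Per3 (rho = 0.626). Within the 9 mice of 1-letter labels, r was 0.961 for Dbp (exact permutation p = 0.000617) and at least 0.678 for each other member. The 10 relations are given without adjustment over the list, since its genes were chosen with results known.

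**Figure D3:**
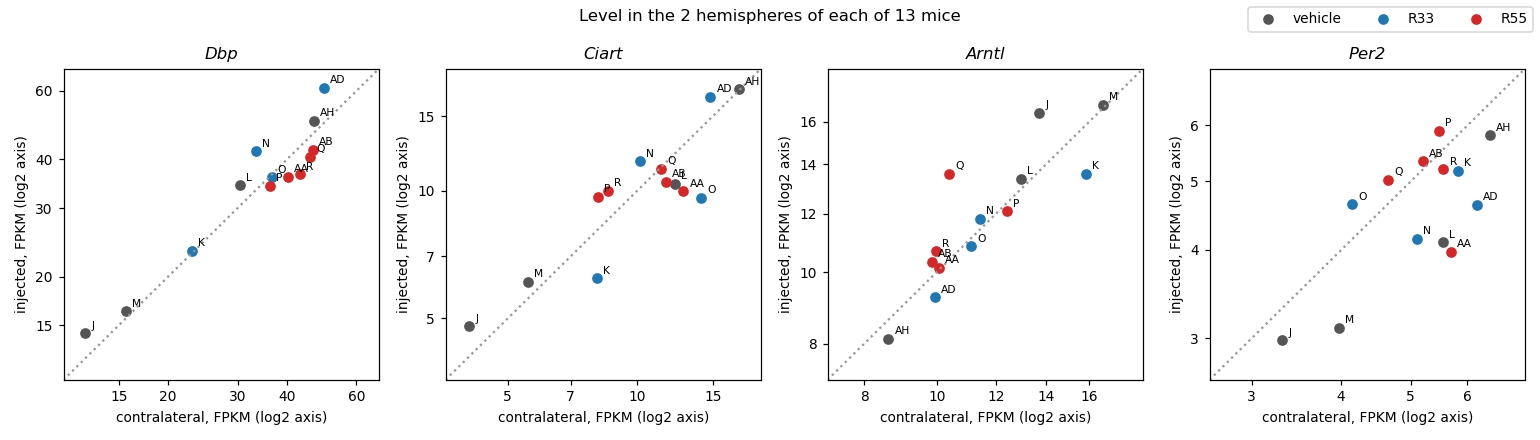
Level in the injected (y axis) against the contralateral hemisphere (x axis), in FPKM on log2 axes, for Dbp, Ciart, Arntl and Per2 in 13 mice, coloured by treatment and named by mouse, with a dotted line of equal levels. Dbp lies along the line from J to AD (r = 0.955), whereas in Per2 most mice other than J and M form 1 cloud.

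The side of the injection itself changed no member beyond the test. Injected and contralateral hemispheres were compared with limma on log2(FPKM + 1), with treatment in the model, and 0 of 10 members and 0.0% of all genes passed an adjusted p of 0.05. At an unadjusted p under 0.05 there were 0 members, against 3.47% of all genes, and limma voom on recovered fragments also called 0 genes. Member estimates ran from a fall of 0.13 for Per2 (SE 0.083) to a rise of 0.04 for Dbp (SE 0.19), neither of which passed. With each mouse as its own block, Per2 was lower on the injected side by 0.14 (95% interval -0.25 to -0.03, unadjusted p = 0.0178, adjusted p = 0.683) and was higher there in 4 of 13 mice. It was the 1 member of 10 at that unadjusted level in the blocked fit, against 6.13% of all genes, and Dbp differed between sides by 0.03 (95% interval -0.08 to 0.13).

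Several clock genes moved against Arntl from mouse to mouse. Over the 14 mice, hemispheres averaged, Dbp fell as Arntl rose, with Pearson r = -0.868 and Spearman rho = -0.890 (permutation p = 2e-05 and 5e-05, two-sided). Ciart did the same with r = -0.855 (rho = -0.842, permutation p = 0.00012 and 0.00035), and Per1 with r = -0.781 (rho = -0.855, permutation p = 0.00048 and 2e-04). Counted from the most negative r with Arntl, Dbp stood at place 6, Ciart at 11 and Per1 at 40 of 12975 genes. An r of -0.5 or below was found for 7 of 9 members and for 10.1% of all genes.

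The remaining members followed Arntl less closely. Per3 had r = -0.690 (rho = -0.582), Per2 r = -0.646 (rho = -0.455), Cry1 r = -0.574 (rho = -0.508) and Cry2 r = -0.569 (rho = -0.534), and the rank test gave permutation p = 0.0321 for Per3, 0.103 for Per2, 0.0665 for Cry1 and 0.0523 for Cry2, with 0.00612, 0.0121, 0.0327 and 0.0327 for r. Nr1d1 and Nr1d2, the repressors of Arntl, had r = -0.406 and -0.418 (permutation p = 0.151 and 0.139; rho = -0.143 and -0.0989, permutation p = 0.628 and 0.738). Neither passed, so Arntl and its direct repressors were not shown to move against each other over all mice. Without mice M and AH, the 2 farthest from the median Arntl level, r was -0.815 for Dbp, -0.773 for Ciart, -0.744 for Per1 and -0.615 for Per3, but -0.407 for Per2, -0.148 for Nr1d2 and -0.112 for Nr1d1. Within the 9 mice of 1-letter labels, r was -0.885 for Dbp (exact permutation p = 0.00176), -0.774 for Ciart (0.0144), -0.774 for Per3 (0.0150) and -0.712 for Nr1d2 (0.0313), while Per1 had r = -0.560 and exact permutation p = 0.107. The 5 mice of 2-letter labels were too few for a value of their own. The mice share 3 treatments and 2 label series, and 9 relations were computed, with no adjustment over the list.

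**Figure D4:**
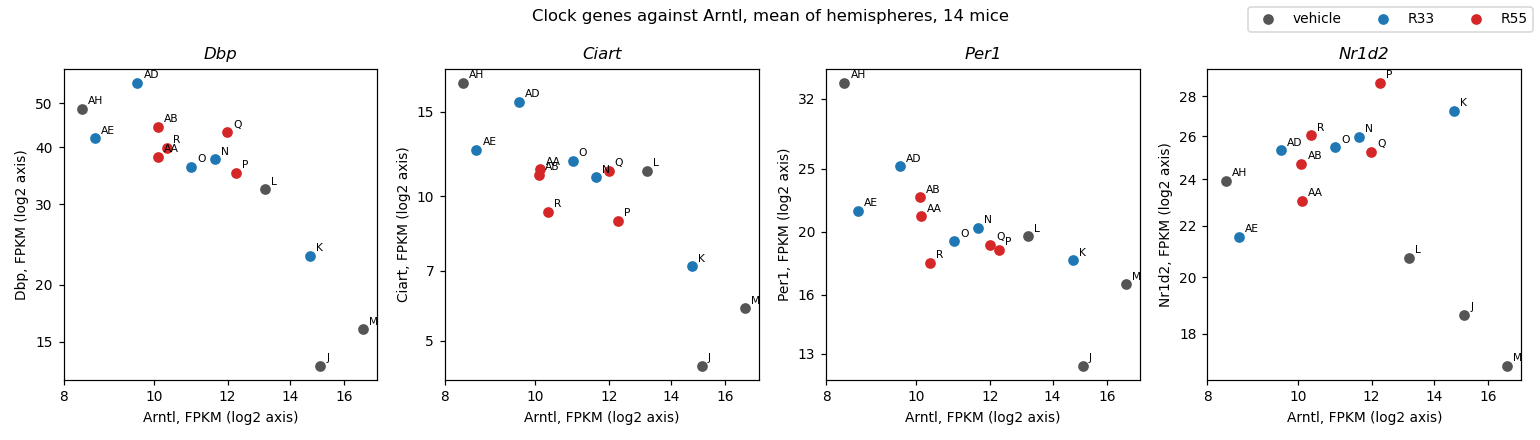
Level of Dbp, Ciart, Per1 and Nr1d2 (y axes) against Arntl (x axis), in FPKM on log2 axes, hemispheres averaged, for 14 mice coloured by treatment and named by mouse. Dbp (r = -0.868) and Ciart (r = -0.855) descend from AH and AD to M and J. In Nr1d2 (r = -0.418), vehicle mice L, J and M lie below every drug mouse, and J and M also have more Arntl than any drug mouse.

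Outside the list, the genes most like Arntl over the 14 mice were Ehmt1, a histone H3K9 methyltransferase (r = 0.930), Jade3 (0.908), Dnaaf4 (0.899), Prdm10 (0.896) and Rab40b (0.891), and those most opposed were C030006K11Rik (-0.892), Cables1 (-0.881), Gm31134 (-0.880), Hcn2, a pacemaker channel of neurons (-0.878), and Tspan4 (-0.869). Those most like Dbp were Cadm4 (0.924), Pfkm, the muscle-type phosphofructokinase (0.916), Nol3 (0.894), Mthfd1l (0.880) and Arhgef15 (0.869), and those most opposed were Fam13c (-0.886), Plat (-0.882), Prkg1 (-0.876), Rasa1 (-0.869) and Mplkip (-0.869). Per1 was followed most closely by Klhl40 (0.896), Midn (0.868), Kat14 (0.867), Lhx6 (0.848) and Tmem201 (0.835), and opposed by Mplkip (-0.895), Mex3c (-0.884), Zfp518a (-0.877), Palmd (-0.874) and Fam13c (-0.861). These are the extremes of 12976 genes over 14 points and are given as a description of likeness.

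The question of the drug comparisons was whether either compound shifted the clock genes within a day. With R55, Cry1, Nr1d2, Per3 and Dbp had the largest fitted differences from vehicle, all upward, and none passed the adjusted test. Cry1 was higher by 0.38 on the log2(FPKM + 1) scale (SE 0.082, 1.30-fold, adjusted p = 0.131), Nr1d2 by 0.34 (SE 0.077, 1.27-fold, adjusted p = 0.131), Per3 by 0.37 (SE 0.096, 1.29-fold, adjusted p = 0.259) and Dbp by 0.70 (SE 0.23, 1.63-fold, adjusted p = 0.528), by limma over all genes with Benjamini-Hochberg adjustment. Arntl was lower by an estimate of -0.23 (SE 0.12, adjusted p = 0.598). The number of members called was 0 of 10, and 0.00771% of all genes were called. At an unadjusted p under 0.05 there were 5 members, the 4 named and Per2 (0.23, SE 0.10), all higher, against 8.45% of all genes. The median of the member estimates was 0.24, beside 0.03 over all genes.

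With each mouse entered once, as the mean of its hemispheres, the R55 estimates were the same with wider errors. Cry1 then had an SE of 0.10, Nr1d2 of 0.095, Per3 of 0.12 and Dbp of 0.31, the adjusted p was 0.918 for each, and 4 of 10 members and 3.39% of all genes had an unadjusted p under 0.05. Single mice moved the values of the fit that enters both hemispheres of a mouse, and the adjusted p-values in the rest of this paragraph come from that fit, not from 1 value per mouse. Without mouse AH, the R55 estimate for Nr1d2 was 0.43 with adjusted p = 0.0216, that of Dbp was 1.03, that of Ciart 0.56 and that of Arntl -0.42. Without vehicle mouse J, by contrast, the estimate was 0.43 for Dbp and -0.03 for Ciart. Cry1 passed without R33 mouse AD (0.38, adjusted p = 0.0229), which is in neither of the compared groups. Of all 12976 genes tested, 4 were called without mouse AH and 50 without mouse AD, against 1 with all mice. Among 1-letter mice alone, a comparison added after the data were seen, Nr1d2 was higher with R55 by 0.49 (SE 0.081, adjusted p = 0.0319), and Dbp by 1.004 (SE 0.22, adjusted p = 0.155). In that fit 5 of all genes tested were called. Mouse means of 1-letter mice did not overlap for 6 of 10 members, Dbp, Nr1d2, Cry1, Per3 and Per2 being higher in all 3 R55 mice and Arntl lower, against 7.6% of all genes. Among 2-letter mice, with a lone vehicle mouse, 9 of 10 members and 74.9% of all genes did not overlap. Mouse AH was above both R55 mice for Dbp, Ciart, Per1, Per2, Cry2 and Nr1d1 and below both for Cry1, Per3 and Arntl.

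R33 gave a similar set of estimates. Nr1d2 was higher than in vehicle by 0.34 (SE 0.079, 1.26-fold, adjusted p = 0.587), Cry1 by 0.34 (SE 0.084, 1.26-fold, adjusted p = 0.799) and Dbp by 0.59 (SE 0.23, 1.504-fold, adjusted p = 0.834). These 3 of 10 members had an unadjusted p under 0.05, against 5.87% of all genes, and 0 members and 0.0% of all genes passed the adjusted test by limma, as was also so with limma voom on recovered fragments. With 1 value per mouse, 2 of 10 members, Cry1 and Nr1d2, kept an unadjusted p under 0.05, against 2.67% of all genes. In that fit 0 genes passed the adjusted test, and the smallest adjusted p over all genes was 0.995 by limma. Per3 had an estimate of 0.15 (SE 0.098) and Arntl of -0.19 (SE 0.13). Without vehicle mouse AH the estimate for Dbp was 0.92, and without vehicle mouse J it was 0.32. The vehicle mice were shared by these contrasts, so the estimates for the drugs are not independent of each other.

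The compounds, injected at the same concentration and read at the same time, differed from each other in no member by the adjusted test. For Per3 the estimate was 0.21 higher with R55 than with R33 (95% interval 0.02 to 0.41, unadjusted p = 0.0293, adjusted p = 0.9998), and it was the 1 member of 10 with an unadjusted p under 0.05, against 1.15% of all genes. With 1 value per mouse the interval was -0.02 to 0.45, and 0 of 10 members and 0.617% of all genes remained at that level. In 1-letter mice, mouse means did not overlap for 2 of 10 members, against 7.05% of all genes, with Per3 higher and Nr1d1 lower in all 3 R55 mice, and the 2-letter mice overlapped for both. The R55 minus R33 difference for Nr1d2 was 0.00 (95% interval -0.15 to 0.16), for Cry1 0.04 (-0.12 to 0.21) and for Cry2 0.01 (-0.12 to 0.14). For Dbp it was 0.11 with an interval of -0.34 to 0.57, and for Ciart -0.10 with one of -0.53 to 0.33, so differences of that size in either direction could not be told from 0. Adjusted p-values in this comparison were 0.9998 for all 10 members, and 0.0% of all genes were called.

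**Figure D5:**
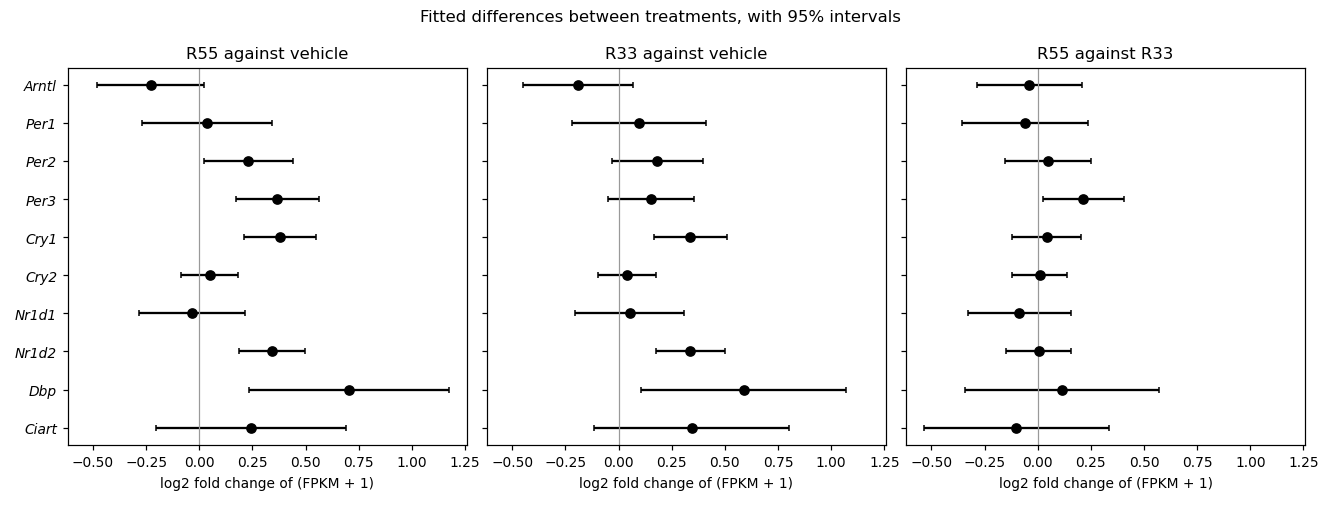
Fitted log2 fold change of FPKM + 1 (x axis) with its 95% interval for each clock gene (y axis) in R55 against vehicle, R33 against vehicle and R55 against R33. The fit entered both hemispheres of a mouse as separate libraries, so the intervals are narrower than with 1 value per mouse. Dbp, Nr1d2 and Cry1 lie to the right of 0 with either drug, by 0.34 to 0.70. Between the drugs 9 of the 10 intervals include 0, all but that of Per3, which included 0 as well with 1 value per mouse.

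For the members named here, the drug estimates had the same direction in each hemisphere. The hemispheres come from the same mice, whose levels agreed between sides, so the sides are not independent of each other. On the injected side, R55 minus vehicle was 0.28 for Cry1 (SE 0.10), 0.28 for Nr1d2 (SE 0.10), 0.30 for Per3 (SE 0.11) and 0.56 for Dbp (SE 0.32), and 4 of 10 members (Cry1, Nr1d2, Per3 and Per2) had an unadjusted p under 0.05, against 1.09% of all genes. On the contralateral side it was 0.48 (SE 0.13), 0.41 (SE 0.11), 0.43 (SE 0.16) and 0.85 (SE 0.31) in the same order, with 4 of 10 members (these 4) against 11.5% of all genes. For R33, 2 of 10 members (Cry1 and Nr1d2) were at that level on the injected side, against 1.84% of all genes, and the same 2 on the contralateral side, against 2.96%. None passed an adjusted p of 0.05 on either side, and limma called 0 genes in each of the 4 comparisons. Dbp was higher on the injected side in all 4 vehicle mice and lower there in all 5 R55 mice, and such opposite signs were found for 1 of 10 members and 0.617% of all genes. The difference between sides in the R55 estimate of Dbp was -0.28 (95% interval -1.25 to 0.68), the contralateral estimate being the larger, and with each mouse as its own block its interval was -0.47 to -0.09 (unadjusted p = 0.00633, adjusted p = 0.806 by limma). It was the 1 member of 10 at an unadjusted p under 0.05 in that fit, against 5.93% of all genes. For R33 the blocked difference for Dbp was 0.02 (95% interval -0.18 to 0.22).

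Markers of other cells and states were read beside these estimates. At an unadjusted p under 0.05, the shares of all genes were 8.45% with R55, 5.87% with R33 and 1.15% in R55 against R33. With R55, all 10 neuronal immediate early genes had an estimate above 0 (median 0.41) and 4 of 10 an unadjusted p under 0.05, whereas with R33 9 of 10 were below 0 (median -0.05), and in R55 against R33 7 of 10 were higher at that level. With 1 value per mouse these counts were 0 of 10 for R55 against vehicle and 2 of 10 for R55 against R33. The shares of all genes were then 3.39% and 0.617%, and 2.67% for R33 against vehicle. Of 8 glucocorticoid-responsive genes tested, 1 with R55 and 2 with R33 had an unadjusted p under 0.05, Tsc22d3 (GILZ) in both, by 0.47 (SE 0.088, adjusted p = 0.0916) and 0.42 (SE 0.090, adjusted p = 0.505). No gene of the microglial, oligodendrocyte or endothelial lists reached that level in either, and 1 of 6 astrocyte markers, Aldh1l1, did in both, as did Alas2 of the red blood cell list with R55. With 1 value per mouse Aldh1l1 and Alas2 did not, while 1 of 6 oligodendrocyte markers did with R33. Of 3 suprachiasmatic nucleus markers tested, 1 was higher at that level with R55 and 0 with R33. The part of all these markers in the clock gene estimates was not tested.

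The series of mouse labels separated Arntl and Per1. Every 2-letter mouse was below every 1-letter mouse for Arntl, with mouse means of 8.37, 9.60, 8.65, 10.1 and 10.1 FPKM in AH, AD, AE, AA and AB and from 10.3 (R) to 16.8 FPKM (M) in the others. Every 2-letter mouse was above every 1-letter mouse for Per1, at 33.9, 25.2, 21.6, 21.1 and 22.6 FPKM against 12.5 (J) to 20.3 FPKM (N). With treatment in the model and 1 value per mouse, Arntl was lower in 2-letter mice by an estimate of -0.40 (SE 0.096, adjusted p = 0.0332) and Per1 higher by 0.43 (SE 0.12, adjusted p = 0.0542). Arntl was the 1 member called, against 5.71% of all genes, and 6 of 10 members (also Ciart, Cry1, Cry2 and Dbp) had an unadjusted p under 0.05, against 25.7%. Mouse means did not overlap for 2 of 10 members, against 2.59% of all genes. The call of Arntl was lost without the filter on low levels (adjusted p = 0.0551) and when any of mice AH, AE, P, K, N, AB or AA was left out (adjusted p from 0.0531 to 0.105), and the estimate without mouse AH was -0.28, while Per1 passed without mouse J (adjusted p = 0.0332). All 6 endothelial markers were lower in 2-letter mice (median -0.93, each past the adjusted test), with a summed level of 35.2 to 44.7 FPKM against 68.9 to 111.8 FPKM, and 2 of 6 microglial markers, Tmem119 and C1qa, were higher. Alas2 of the red blood cell list, 1 of 6 astrocyte markers and 1 of 8 glucocorticoid-responsive genes were also higher past the adjusted test, and all 6 striatal markers had estimates below 0 (median -0.49), none past it. Of 10 immediate early genes, 0 passed the adjusted test and 5 were higher at an unadjusted p under 0.05. Fewer cells of a type and less RNA per cell cannot be told apart in such tissue, and their part in the Arntl and Per1 values was not tested.

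The label series was also entered as a covariate, in the limma fit that takes both hemispheres of a mouse and not 1 value per mouse. The R55 estimates were then 0.35 for Cry1 (adjusted p = 0.0875), 0.34 for Nr1d2 (adjusted p = 0.164), 0.34 for Per3 (adjusted p = 0.251) and 0.62 for Dbp (adjusted p = 0.508). The R33 estimates were 0.32 for Cry1, 0.34 for Nr1d2 and 0.54 for Dbp. These estimates kept their direction with that term, although among 2-letter mice Dbp was lower in both R55 mice than in vehicle mouse AH.

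The other genes of the clock were taken from 6 lists of 23 genes, of which 22 were tested. With R55, 0 of 22 passed the adjusted test, 5 had an unadjusted p under 0.05 and were higher, and 1, Clock, was lower, against 8.45% of all genes. With 1 value per mouse, 4 were higher and 0 lower at that level, against 3.39% of all genes, so Clock and Coq10b were no longer among them. The 5 were Tsc22d3 (above), Tef (0.30, SE 0.081, adjusted p = 0.309) and Hlf (0.40, SE 0.12, adjusted p = 0.485), which are the other PAR bZIP activators, Wee1, a cell cycle kinase under clock control (0.21, SE 0.075, adjusted p = 0.545), and Coq10b (0.28, SE 0.11, adjusted p = 0.557). Clock, the partner of BMAL1, had an estimate of -0.17 (SE 0.077, adjusted p = 0.579). With R33, 3 were higher at that level, Tsc22d3, Tef (0.22, SE 0.084) and Hlf (0.30, SE 0.13), and Npas2, the paralog of Clock, was lower (-0.18, SE 0.068, adjusted p = 0.834), against 5.87% of all genes. The 7 kinases and ubiquitin ligases of clock proteins had none at that level with either drug. In 2-letter against 1-letter mice, 2 of 22 were called, 1 higher and 1 lower, against 5.71% of all genes, and the higher one was Tef, by 0.24 (SE 0.059, adjusted p = 0.0345). Over the 14 mice, Clock, Npas2 and Arntl2 had r = 0.627, 0.493 and 0.648 with Arntl, whereas Tef had -0.836, Hlf -0.702 and Bhlhe41, a Dec repressor, -0.858. These were picked from the 22 genes after their values were seen. Nfil3, of the same list as Tef and Hlf, had 0.611, while Rora, Rorb and Csnk1d had -0.045, 0.129 and -0.023. An r of -0.5 or below was found for 10.1% of all genes. The median r of all genes with Arntl was 0.055.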

How the data were processed

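RNA of 27 cortex libraries from 14 mice was sequenced by the authors from stranded mRNA libraries and aligned with HISAT2 to GRCm39. The deposited table gives FPKM per gene, and the authors' FPKM values of 27 of its 32 libraries were used (5 libraries were not used). The study states 6 mice per group, and the labels of the libraries used give 4 or 5. Whole fragments could be recovered from the FPKM of every value within 0.01 fragments, with totals of 15932196 to 38077026 per library.

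FPKM was log2-transformed with a pseudocount of 1, and genes whose mean level reached 1 FPKM, 12976 in all, were tested with limma 3.58.1 (R 4.3.3) with a mean-variance trend and Benjamini-Hochberg adjustment over all genes tested, at a threshold of 0.05. Fold changes are on the log2(FPKM + 1) scale, which understates those of low genes. Treatment and hemisphere were additive terms over all libraries, so each mouse entered with up to 2 libraries and the SE is smaller than with 1 value per mouse. Results with 1 value per mouse are given for part of the treatment comparisons. They are not given for those with the label series as covariate, in 1-letter mice or without a mouse. Other fits used 1 hemisphere, an interaction term, or mouse means (label series, with treatment as a term). Correlations used Pearson's r and Spearman's rho with 100000 permutations, of which 1e-05 is the smallest p possible, or an exact permutation test for the 9 mice of 1-letter labels. The script was tested on simulated data. Python 3.11.15, numpy 2.4.6, pandas 2.3.3, scipy 1.17.1, matplotlib 3.10.9 and statmod 1.5.0 were used.

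Hemispheres with the same label come from the same animal, which is where the pairing comes from. The correlation of their deviations from the group means ran from -0.079 (mouse Q) to 0.648 (mouse AH) and was above 0.1 in 11 of 13 mice, and 9 of 13 mice were matched best by their own other hemisphere.

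The members and all gene lists were chosen with earlier results of these data known. All 10 members are named. Of the clock lists, genes past the adjusted test and up to 5 others per contrast with the smallest p are named, apart from items that are not reported here, and for Arntl, Dbp and Per1 the 5 genes with the highest and the 5 with the lowest r. Clock with R55, the clock genes given with their r against Arntl, and the markers Slc17a7, Six6, Lhx1, Nms, Vip, Rgs16, Avp, Alas2, Aldh1l1, Tmem119 and C1qa were named outside that rule, after their values were seen. Alternatives were a pseudocount of 0.1, no filter, other scalings, a voom fit on recovered fragments, label series as covariate, mouse as block and each mouse left out. The comparison of 1-letter mice alone, and some settings of the difference between hemispheres, were added after the data were seen.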

Additional observations from a re-analysis of the deposited data

Results flagged for a closer look

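Among 60 sets of 4 or 5 libraries of 1 gene, treatment and hemisphere, 4 held a library farther from the others than the limit of Dixon's test, and chance alone gives about 1 in 20 sets. All 4 were in R55 mice, whose spread was small for most of these genes. Per3 was lowest in the injected hemisphere of mouse AA, at 5.337 FPKM with the nearest of the others at 6.466. Cry2 was highest in the injected hemisphere of mouse AB, at 39.5 FPKM with the nearest at 34.26. Nr1d1 was highest in the injected hemisphere of mouse Q, at 63.04 FPKM with the nearest at 53.22. Arntl was highest in the contralateral hemisphere of mouse P, at 12.41 FPKM with the nearest at 10.39. Each of these was 1 hemisphere of its mouse, and no mouse was set apart for a gene on both sides.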

How the results depend on the processing

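Under settings other than leaving out a mouse, 435 recomputed fold changes of members kept their direction and their side of the threshold, 1 newly passed, 1 no longer passed and 11 turned direction. These 11 were small values in R55 against vehicle (Per1 -0.034 with the label series as covariate, Nr1d1 0.14 in 1-letter mice), R55 against R33 (Cry2 -0.0014 with the label series and -0.0035 in 1-letter mice, Ciart 0.0096 in 1-letter mice) and injected against contralateral (Per3 0.043 in 1-letter mice and 0.089 within vehicle mice, Cry1 0.028, 0.13 and, with each mouse as block, 0.0051, Ciart 0.025 within vehicle mice). The count of genes called for R55 against vehicle was 1, and it was 0 without the filter, with median-of-ratios scaling, with the length trend removed, with the label series as covariate, with 1 value per mouse and with mouse as replicate block, 12 when only the compared treatments entered, 5 in 1-letter mice alone and 0 to 50 with a mouse left out. For R33 against vehicle, and for R33 in the contralateral hemisphere, it was 1 without the filter and 0 otherwise, for R55 against R33 it was 0 to 2 with a mouse left out, and for the label series 175 to 1076 against 741. The paired fit, with mouse as block, called 0 genes between hemispheres and changed no call of a member. Of the correlations, 8 values with a mouse left out and 4 under other settings no longer had a p under 0.05. With 1 mouse left out, estimates over both hemispheres that crossed 0, and 1 of those in a single hemisphere, ranged as follows (others within or between hemispheres also crossed it): with R55, Per1 from -0.16 to 0.29, Cry2 from -0.038 to 0.13, Nr1d1 from -0.23 to 0.12 and Ciart from -0.028 to 0.56. With R33 they were Per1 from -0.10 to 0.35, Cry2 from -0.047 to 0.12, Nr1d1 from -0.14 to 0.21 and, on the injected side, Per3 from -0.025 to 0.14. Between the drugs they were Per1 from -0.11 to 0.015, Cry2 from -0.032 to 0.040, Nr1d2 from -0.037 to 0.039, Dbp from -0.072 to 0.28, Arntl from -0.097 to 0.066 and Ciart from -0.27 to 0.032. Between hemispheres they were Per3 from -0.046 to 0.0088, Cry1 from -0.027 to 0.020, Nr1d1 from -0.013 to 0.027, Arntl from -0.022 to 0.033 and Ciart from -0.040 to 0.021. For the label series they were Nr1d1 from -0.12 to 0.10 and Nr1d2 from -0.15 to 0.016. The cause of these changes was not tested.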
